A study of Mus musculus with 196 samples.

Results

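The collagen genes were taken as the genes whose symbol reads Col, a number, the letter a and a number, measured by probe sets that named 1 gene. Of 18820 such genes on the array, 42 were collagen genes, and the probe set with the highest mean stood for each of the 4 that had several. By class they were 11 fibrillar genes, 6 of basement membrane type IV, 6 of type VI, 3 of short-chain networks, 8 fibril-associated genes, 4 transmembrane genes, 2 multiplexins and 2 others (Col26a1 and Col28a1). The values came from 196 arrays of shaved skin from 100 untreated mice, killed at an age of 8 weeks. All mice came from a backcross, in which FVB/N females were crossed to Mus spretus males and the hybrid daughters to FVB/N males. Each mouse therefore carried its own mix of alleles, which was not analysed here, and every group held this mixed background. Non-anagen dorsal skin, labelled as outside the growth phase of the hair cycle, had 85 arrays (41 females, 44 males). Anagen dorsal skin, labelled as in the growth phase, had 14 arrays (8 females, 6 males), and tail skin had 97 (48 females, 49 males). A tail and a dorsal array were both at hand for 82 mice with non-anagen and 14 mice with anagen dorsal skin. The mice are the replicates, and whole skin was used, so a value is a mixture of epidermis, follicles, dermis, vessels, muscle and fat.

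Collagens are proteins of 3 chains wound into a triple helix. The fibrillar types I, III and V form the tensile fibrils of the dermis, and the fibril-associated types sit on fibril surfaces and space or bridge them. Type IV forms the sheet of basement membranes, types VI and VIII form microfibrils and networks around cells, and type XVII is a transmembrane protein that anchors basal keratinocytes to the basement membrane.

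The labelled tissues were checked against their markers before the collagens were read. Krt5, a keratin of basal keratinocytes, averaged 12.27 ± 0.19 (log2, SD, n = 85) in non-anagen dorsal skin and 12.39 ± 0.12 (SD, n = 97) in tail. Of 6 posterior Hox genes, which mark hind positions of the body, 4 were higher in tail by at least 2-fold. The 9 genes of the hair shaft and inner root sheath were all higher in anagen than in non-anagen dorsal skin. Their mean per array ran from 6.15 to 12.09 in the 14 anagen arrays and from 4.91 to 6.37 in the 85 non-anagen arrays. Thus 3 anagen arrays lay inside the non-anagen range, and anagen results are given with and without them. That overlap rests on 1 non-anagen array, since the second highest, at 6.149, lay below the lowest anagen array, at 6.155. The non-anagen median was 5.27. Dorsal arrays were labelled as batches 1 and 2 and tail arrays as batches 3 and 4, so effects of batch and of tissue cannot be told apart, and all anagen arrays were in batch 1. Array medians averaged 5.81 in non-anagen dorsal skin and 5.95 in tail. Y-linked genes on the 97 female arrays, which hold no such transcript, averaged 3.34 (Uty) to 4.43 (Kdm5d), which shows the reading of these probe sets without target.

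The collagen genes covered most of the range of the array. The highest mean values over all arrays were those of the probe sets for Col1a1 (11.47, higher than 99.2% of genes), Col1a2 (11.04, 98.7%), Col17a1 (10.32, 96.7%) and Col3a1 (9.84, 94.0%). The lowest were those for Col6a4 (4.59), Col19a1 (4.76), Col6a5 (4.91) and Col25a1 (4.96). Of the 42 genes, 17 had a mean above 6.49, the median of all gene means. These are ranks of probe set signal on the log2 scale and are not levels per transcript length.

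Upstream sequence is shown for members that the comparisons turn on. RefSeq windows on GRCm38.p6 were found for 34 of the 42 genes, and none was used for Col1a1, Col2a1, Col4a3, Col5a2, Col12a1, Col14a1, Col22a1 and Col26a1. Col1a2 and Col3a1 are shown because their sex differences were among the largest, and Col8a1 because it was higher in tail. Each run holds the 250 bases before the annotated start, 5′ to 3′ on the gene's strand, at chr6:4505368-4505617 (plus) for Col1a2, chr1:45311288-45311537 (plus) for Col3a1 and chr16:57754738-57754987 (minus) for Col8a1. Capitals mark matches on either strand to short promoter motifs. The first searched was TATAAA, the core of the best known element near transcription starts. The next was CCAAT, an element bound by the factor NF-Y. The last was GGGCGG, the GC box bound by factors of the Sp family. No match overlaps another.
Col1a2: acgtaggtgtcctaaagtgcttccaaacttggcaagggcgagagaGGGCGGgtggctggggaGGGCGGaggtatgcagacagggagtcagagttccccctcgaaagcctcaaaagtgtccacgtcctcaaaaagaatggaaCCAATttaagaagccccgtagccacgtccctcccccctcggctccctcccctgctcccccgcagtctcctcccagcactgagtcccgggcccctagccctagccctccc
Col3a1: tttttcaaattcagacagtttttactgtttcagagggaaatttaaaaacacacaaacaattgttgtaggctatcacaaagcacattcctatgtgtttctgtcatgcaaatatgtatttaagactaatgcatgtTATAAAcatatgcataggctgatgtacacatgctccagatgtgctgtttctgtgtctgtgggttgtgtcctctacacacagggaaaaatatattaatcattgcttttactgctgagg
Col8a1: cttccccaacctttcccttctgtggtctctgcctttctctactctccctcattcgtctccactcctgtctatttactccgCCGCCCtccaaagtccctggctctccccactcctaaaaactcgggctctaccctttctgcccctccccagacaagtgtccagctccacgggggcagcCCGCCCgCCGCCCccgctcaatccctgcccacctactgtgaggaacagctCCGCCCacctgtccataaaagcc
The Col1a2 window held 1 CCAAT match, 105 to 109 bases before the start, and 2 GC box matches. The Col3a1 window held 1 TATAAA match, 112 to 117 bases before the start, and neither other motif. The Col8a1 window held 4 GC box matches, the nearest 18 to 23 bases before the start. Among the 34 collagen genes with a window, 5 held TATAAA, 12 held CCAAT and 20 held GGGCGG in any of their windows. Among all 32851 windows, counted singly and not per gene, the shares were 12.4%, 33.8% and 32.7%. A match is a description of the letters and not a shown binding site.

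Col4a1 and Col4a2, whose chains make the common type IV trimer, lie head to head, so their starts are shown together. The run at chr8:11312801-11312830 is given on each gene's strand, and capitals mark the 22 bases from one annotated start to the other, both included. The starts face past each other, so these bases belong to the beginning of both annotated transcripts.
Col4a2: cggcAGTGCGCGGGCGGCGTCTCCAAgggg
Col4a1: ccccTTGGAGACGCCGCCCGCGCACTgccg
The runs are reverse complements of each other.

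Tail skin was first compared with non-anagen dorsal skin, which asks how skin of the 2 sites differs. Col14a1, Col12a1 and Col8a1 were each more than 2-fold higher in tail. Among the 42 genes these 3 were higher and 0 were lower at an adjusted p under 0.05 and at least 2-fold, against 3.94% and 2.02% of all genes by this rule. At any size of difference 13 were higher and 18 lower, beside 43.8% and 43.5% of all genes, so passing that looser threshold sets no gene apart. The median difference was 0.003 over the collagen genes and -0.00051 over all genes. With every array shifted to the same median, which moved the median of all genes by -0.21, the counts at any size were 9 higher and 29 lower, and over all genes 5499 higher and 11343 lower. Differences smaller than about that shift depend on the scaling.

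**Figure D1:**
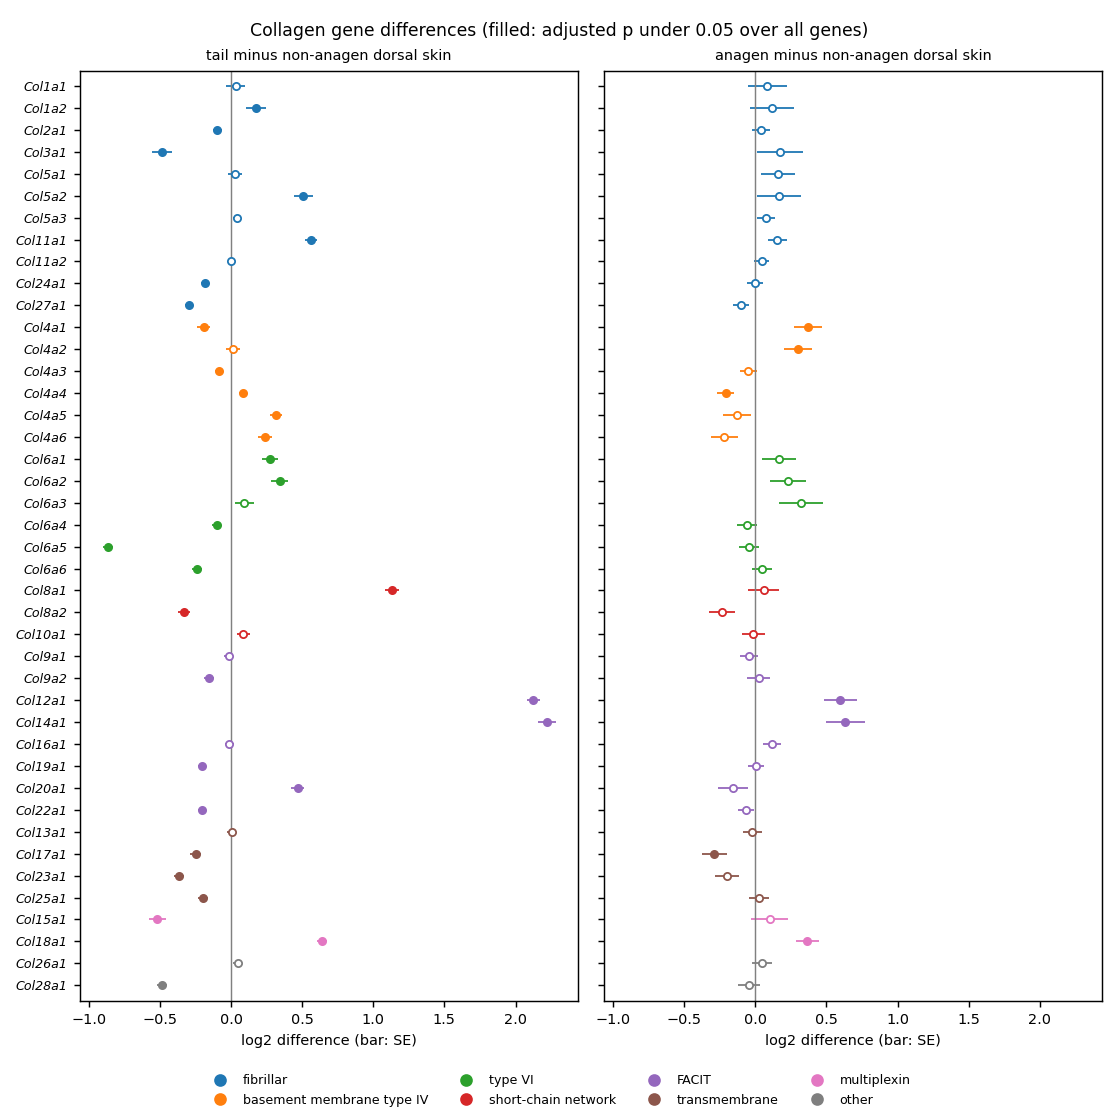
Differences of the 42 collagen genes on the log2 scale, tail minus non-anagen dorsal skin on the left and anagen minus non-anagen on the right, coloured by class. Bars are standard errors and filled points had an adjusted p under 0.05 in limma over all genes. Col14a1 (2.22), Col12a1 (2.13) and Col8a1 (1.13) lie farthest right in the left panel.

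Col12a1, a fibril-associated collagen of dense connective tissue, ran from 6.47 through a median of 7.51 to 8.34 in the 85 non-anagen arrays. In the 97 tail arrays it ran from 8.82 through 9.64 to 10.14. Every tail array lay above every non-anagen array, and Col12a1 was the only member of which this held (1.42% of all genes were separated in this direction and 0.478% in the other). The difference was 2.13 (SE 0.045), or 4.36-fold, with an adjusted p of 4.99e-103 in limma. In a bulk sample, fewer cells of a type and less RNA per cell cannot be told apart.

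Col14a1, a relative of Col12a1 that binds fibrils and interacts with decorin, ran from 5.25 through 6.16 to 7.45 in non-anagen dorsal skin and from 7.40 through 8.45 to 9.25 in tail. The ranges touched only at their ends. The difference was 2.22 (SE 0.062), or 4.66-fold, with an adjusted p of 3.50e-83 in limma, and in each of the 82 mice with both arrays the tail was higher, by 0.61 to 3.62. Within the same mice Col12a1 was higher in tail by 0.96 to 2.95.

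Col8a1, a short-chain collagen of the matrix around vessels and of other networks, ran from 5.13 through 5.95 to 6.69 in non-anagen dorsal skin and from 6.29 through 7.08 to 7.88 in tail. The upper dorsal arrays overlapped the lower tail arrays, but within each of the 82 mice the tail was the higher one. The difference was 1.13 (SE 0.052), 2.19-fold, with an adjusted p of 2.35e-51 in limma. It stayed higher but under 2-fold with arrays shifted to the same median (0.93) and after quantile normalization (0.97). Col8a2, which encodes the partner chain, moved the other way (-0.33, SE 0.040).

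**Figure D2:**
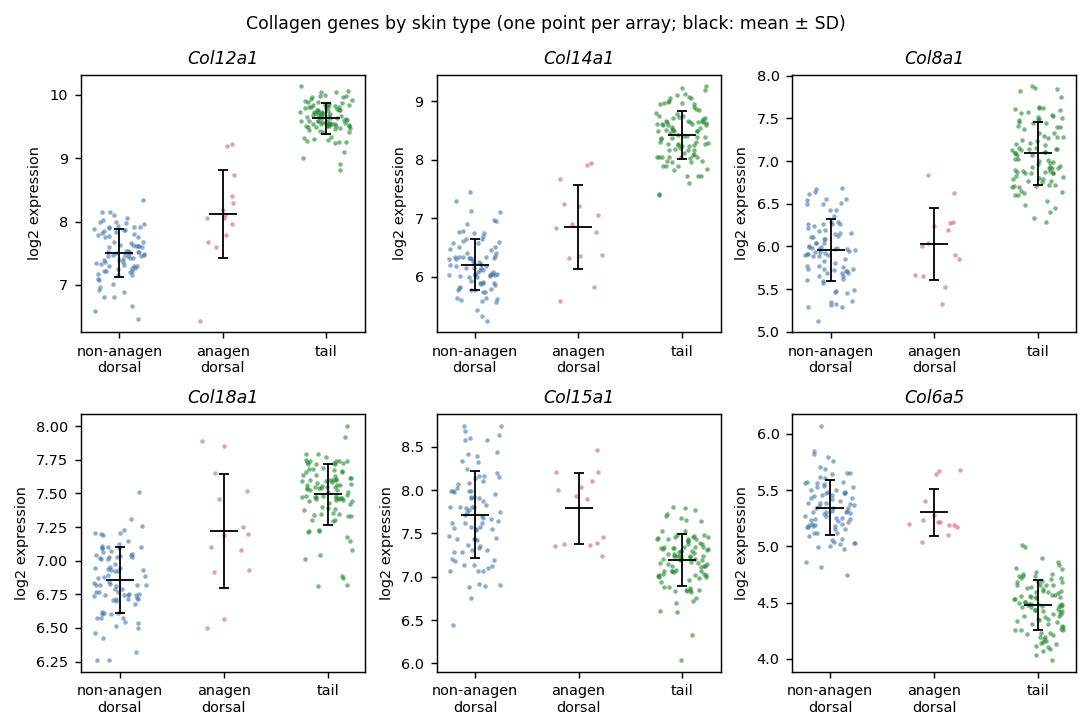
log2 expression of 6 collagen genes in the 85 non-anagen dorsal, 14 anagen dorsal and 97 tail arrays, 1 point per array with the group mean and SD in black. The tail points of Col12a1 all lie above the non-anagen points, those of Col6a5 all lie below the anagen points, and the anagen points of Col12a1 and Col14a1 are the most spread.

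The multiplexins, proteoglycan-bearing collagens of basement membrane zones, moved in opposite directions. Col18a1, the precursor of endostatin, was higher in tail by 0.64 (SE 0.035, adjusted p = 8.64e-43 in limma), from a median of 6.83 to 7.54, and was higher in 79 of 82 mice. Col15a1, enriched in the basement membranes of vessels and muscle, differed by -0.52 (SE 0.059), with medians of 7.71 and 7.23, and was higher in tail in only 15 of 82 mice. Both genes had overlapping groups.

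Among fibrillar genes 3 of 11 were higher and 4 lower in tail at any size, beside 43.8% and 43.5% of all genes. Col11a1, a minor chain of fibrils that is abundant in cartilage, rose by 0.56 (SE 0.043) from a median of 5.27 to 5.83. Col5a2, a chain of the type V collagen that nucleates dermal fibrils, rose by 0.51 (SE 0.067). Col3a1, the chain of the thin pliable fibrils, fell by 0.48 (SE 0.070) from a median of 10.11 to 9.62. For Col1a1, a chain of the main dermal fibril, the difference was 0.033 (SE 0.068, adjusted p = 0.65 in limma), with medians of 11.62 and 11.54. Its partner Col1a2 was higher by 0.18 (SE 0.072), but the value was -0.030 with arrays shifted to the same median and -0.022 after quantile normalization.

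The tail difference of Col1a1, Col1a2, Col3a1, Col5a1 and Col5a2 was not the same in the sexes, by the interaction term reported with the sex differences, while Col5a3 did not pass it (0.12, adjusted p = 0.23 in limma). In females alone Col1a1 was higher in tail by 0.37 and Col1a2 by 0.53, and in males alone the differences were -0.29 and -0.16. Col5a1 was 0.22 in females and -0.15 in males. Col3a1 was lower in tail in both, by -0.25 in females and -0.71 in males, and Col5a2 higher in both, by 0.75 and 0.27. Values near the size of the scaling shift, such as both of Col5a1 and the male one of Col5a2, depend on the scaling. The probe sets of Col5a1 also disagreed, as given below.

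The type IV genes did not move together. Col4a5 and Col4a6 are neighbouring genes on chromosome X whose chains join in the trimer of the epidermal basement membrane. Both were higher in tail, by 0.32 (SE 0.044) and 0.24 (SE 0.047). The rise of each was smaller in females than in males, by the interaction term reported with the sex differences (-0.27 and -0.34). That of Col4a6 is also near the size of the scaling shift. Col4a1 was lower (-0.19, SE 0.045), and for Col4a2 the difference was 0.011 (SE 0.048), which the shift of arrays to the same median turned to -0.19, and was -0.20 after quantile normalization. Col4a3 (-0.086) and Col4a4 (0.081) passed the test with differences below the scaling shift, and under that shift Col4a4 read -0.12.

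In the type VI class, Col6a1 (0.27, SE 0.057) and Col6a2 (0.34, SE 0.057), the chains of the beaded microfibril, were higher in tail. Both differences are not far above the scaling shift, so their size depends on the scaling. For Col6a3, their partner chain, the difference was 0.093 (SE 0.069, adjusted p = 0.19 in limma), and -0.16 after quantile normalization. Col6a5, an alternative to the Col6a3 chain, fell by 0.87 on the log2 scale (-0.87, SE 0.035), from a median of 5.34 to 4.48. It was lower in tail in all 82 mice, by 0.053 to 1.72 on the log2 scale, although the 2 groups overlapped. Its other probe set differed by -0.63. Shifting arrays to the same median took the fall past 2-fold (-1.07). The tail median lies close to the highest mean of the Y-linked probe sets on female arrays, 4.43 for Kdm5d. The size of the fall may therefore be understated, which was not tested.

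Of the remaining members, Col17a1 was lower in tail by 0.25 on the log2 scale (-0.25, SE 0.041), and the transmembrane Col23a1 by -0.37 (SE 0.036). Col28a1, a collagen of peripheral nerve, was lower by -0.49 (SE 0.032). Col20a1, a fibril-associated gene, was higher by 0.47 (SE 0.046), but its other probe set differed by 0.023. Col5a1 also had discordant probe sets: the one used differed by 0.024 and the other by -0.34, as plain group means. Of the collagens known from cartilage, Col11a1 was higher in tail, as given above, Col2a1 (-0.096, SE 0.034) and Col9a2 (-0.15, SE 0.035) were lower by less than the scaling shift, and Col9a1 (-0.016), Col10a1 (0.085) and Col11a2 (0.0013) did not pass the test. In females alone Col2a1 was 0.010.

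Markers of other tissues moved in the same comparison, counted at any size and beside 43.8% (higher) and 43.5% (lower) of all genes. Of 9 cartilage genes 5 were higher in tail and 3 lower (list mean 4.71 to 5.29 in non-anagen and 4.79 to 6.49 in tail arrays). Acan rose by 0.71 and Chad by 3.82, while Matn1 fell by 0.32 (-0.32). The tendon marker Tnmd rose by 1.96, and 4 of 8 bone and tendon genes were higher and 3 lower (list mean 5.09 to 5.99 and 5.31 to 7.14). All 7 smooth muscle genes were lower (list mean 8.05 to 9.72 and 5.998 to 7.93), as were all 7 skeletal muscle genes (5.18 to 11.67 and 4.89 to 9.46) and 6 of 8 endothelial genes (5.88 to 8.07 and 6.16 to 7.72). All 9 hair shaft and sheath genes were higher. Of 6 macrophage genes 5 were higher and 1 lower (6.31 to 9.01 and 6.89 to 8.48), with Mrc1 at 1.23. All 3 measured Schwann cell and nerve genes were lower (6.07 to 6.88 and 5.87 to 6.58), with Sox10 at -0.42, beside the fall of Col28a1. Of 8 dermal papilla genes 4 were higher, 3 of them by 2-fold, and 2 lower (6.08 to 6.90 and 6.27 to 7.35), and of 6 adipocyte genes 2 were higher and 2 lower (5.47 to 9.31 and 5.95 to 8.67). Of 7 fibroblast genes 2 were higher and 3 lower (7.45 to 9.52 and 8.02 to 9.42). Their part in the collagen differences was not tested.

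Anagen was compared with non-anagen dorsal skin next, which asks what accompanies hair growth within a single site. Col14a1, Col12a1, Col18a1, Col4a1 and Col4a2 were higher in anagen, and Col17a1 and Col4a4 were lower, none by 2-fold. That is 5 of 42 higher, against 4.11% of all genes, and 2 of 42 lower, against 3.59%. None of the 11 fibrillar and none of the 6 type VI genes passed the test. The median difference was 0.042 over the collagen genes and -0.018 over all genes.

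Col14a1 ran from 5.59 through a median of 6.86 to 7.94 in the 14 anagen arrays. Its difference was 0.63 (SE 0.14, adjusted p = 7.99e-04 in limma), 1.55-fold. Anagen arrays lay above the non-anagen median in 12 of 14 cases and above the highest non-anagen array in 3.

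Col12a1 ran from 6.43 through 8.08 to 9.23, with a difference of 0.60 (SE 0.12) and an adjusted p of 9.63e-05 in limma. In 13 of 14 arrays it was above the non-anagen median, in 4 above the highest non-anagen array and in 1 below the lowest. Col18a1 was higher by 0.37 (SE 0.081, adjusted p = 8.29e-04 in limma) and exceeded the highest non-anagen array in 4 anagen arrays. These 3 genes were thus the ones whose anagen arrays most often left the non-anagen range upward.

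The 2 chains that start from the shared region printed above rose together. Col4a1 was higher by 0.37 (SE 0.099, adjusted p = 0.0081 in limma), with medians of 6.82 in non-anagen and 7.11 in anagen skin. Col4a2 was higher by 0.30 (SE 0.097, adjusted p = 0.039 in limma), with medians of 6.57 and 6.77. All anagen arrays of Col4a1 lay within the non-anagen range, and 1 of Col4a2 lay above it.

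Col17a1 fell by 0.29 (-0.29, SE 0.089, adjusted p = 0.027 in limma), from a median of 10.52 to 10.26, and 2 anagen arrays lay below the lowest non-anagen array. Col4a4, a chain of the trimer with Col4a3 and Col4a5, fell by 0.21 (-0.21, SE 0.060, adjusted p = 0.016 in limma), with 1 array below the range. With array weights neither passed the test (adjusted p = 0.053 for Col17a1 and 0.057 for Col4a4 in limma), nor did Col4a2 (adjusted p = 0.077 in limma).

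Without the 3 anagen arrays inside the non-anagen range of hair genes, 6 collagen genes were higher and 4 lower. The differences were larger: Col14a1 0.85, Col12a1 0.73, Col4a1 0.48, Col18a1 0.48, Col4a2 0.40 and Col17a1 -0.41. Col11a1 (0.24), Col4a6 (-0.35) and Col23a1 (-0.33) were called in addition. Anagen in males alone, with 6 arrays, left 1 higher call, that of Col14a1, and 0 lower. Females alone, with 8 arrays, left 0 lower, and Col14a1 did not pass there (0.54, adjusted p = 0.11 in limma).

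The 14 anagen arrays were not alike in their hair genes, so the called members were set against the mean of the 9 hair shaft and sheath genes. Pearson's r was 0.77 for Col4a1, 0.76 for Col4a2, 0.75 for Col18a1, 0.71 for Col14a1 and 0.68 for Col12a1, and Spearman's rho 0.80, 0.75, 0.76, 0.74 and 0.73. For Col17a1 r was -0.75 and rho -0.75, and for Col4a4 r was -0.39 and rho -0.38. The permutation p adjusted over these 7 relations was 0.00469 to 0.00612 for r in the first 6 and 0.16 for Col4a4. For rho it was 0.00514 in the first 6 and 0.19 for Col4a4. Without the 2 arrays farthest from the median of hair signal, r ran from 0.65 to 0.78 for the 5 rising genes and was -0.69 for Col17a1. These relations were chosen after the anagen results were seen, on the same arrays. Sex was not removed here, unlike in the other correlations, and the 14 arrays came from 8 females and 6 males.

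**Figure D3:**
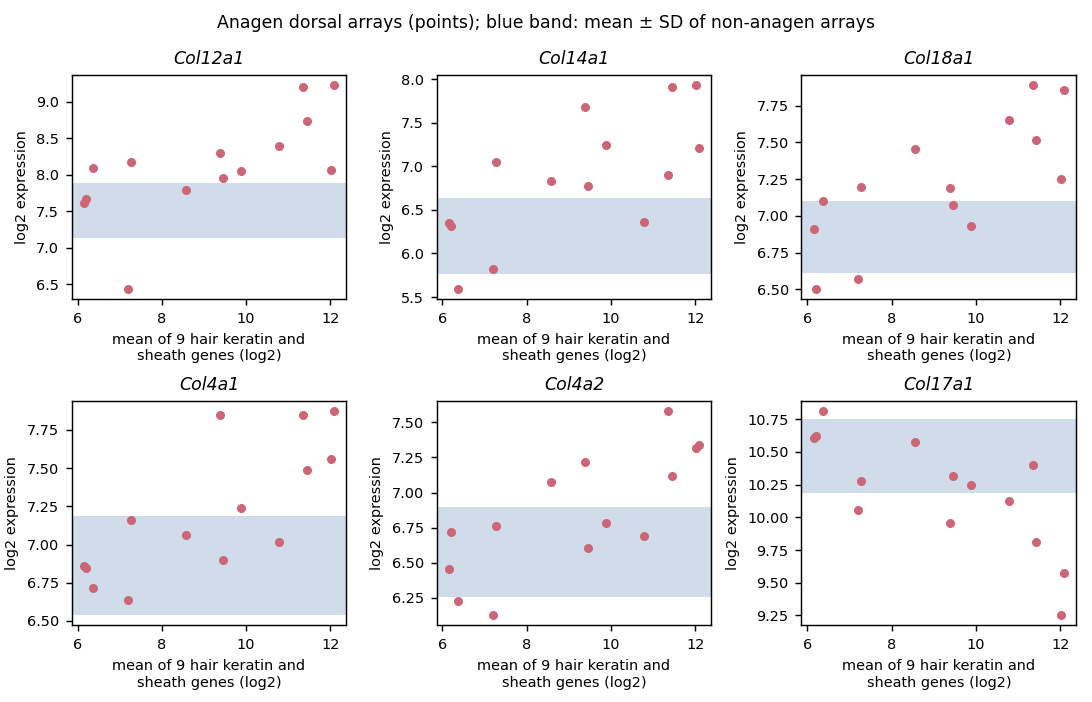
log2 expression of 6 collagen genes in the 14 anagen arrays (points) against the mean of 9 hair shaft and sheath genes in the same array (log2), with the mean ± SD of the non-anagen arrays as a blue band. Values of the first 5 genes run upward (r from 0.68 to 0.77) and those of Col17a1 downward (r = -0.75).

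Other cell markers moved beside these genes, counted beside 4.11% (higher) and 3.59% (lower) of all genes. Of 7 basal keratinocyte genes 3 were lower in anagen and 0 higher (list mean 9.56 to 10.48 in non-anagen and 9.14 to 10.42 in anagen arrays), with Lamb3 at -0.39. Of 4 genes of differentiated keratinocytes 3 were lower (11.34 to 12.17 and 11.16 to 12.14), with Krt1 at -0.32. Of 8 dermal papilla genes 1 was higher, Corin (0.49), and of 7 fibroblast genes none passed. The 6 adipocyte genes differed by 0.40 to 0.84 with a median of 0.55 (5.47 to 9.31 and 6.16 to 9.08), of which 1 passed, Lipe (0.40). The part of these shifts in the collagen differences was not tested.

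Tail was also compared with anagen dorsal skin. Col14a1 (1.58, SE 0.13), Col12a1 (1.52, SE 0.093) and Col8a1 (1.08, SE 0.10) were higher in tail by at least 2-fold, 3 of 42 beside 3.32% of all genes, and 0 were lower beside 1.68%. At any size 10 were higher and 15 lower, beside 39.8% and 36% of all genes. After arrays were shifted to the same median these were 8 and 25, and over all genes 5055 and 9837. With the difference taken within each of the 14 mice that gave both arrays, 9 were higher and 8 lower, and over all genes 6052 and 4520. This comparison shares its tail arrays with that against non-anagen skin, so the 2 sets of values are not independent.

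All 14 mice with anagen dorsal skin had higher Col12a1, Col14a1 and Col8a1 in tail, by 0.083 to 3.47, 0.32 to 3.01 and 0.52 to 2.12. All tail arrays of Col6a5 lay below all anagen arrays (-0.82, SE 0.063), the only member separated in this direction, where 0.335% of genes were. Col4a1 was lower in tail by 0.54 on the log2 scale (-0.54, SE 0.085), Col3a1 by -0.63 (SE 0.098) and Col15a1 by -0.59 (SE 0.090). Col8a1 was under 2-fold with arrays shifted to the same median (0.89) and after quantile normalization (0.96), and Col6a5 passed 2-fold in the former (-1.01).

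Whether tail collagens followed the hair cycle state of the same mouse's back was tested in 14 tails against 82. None of the 42 genes was called, higher (0% of all genes) or lower (0%), by limma. At an unadjusted p under 0.05, 1 member was higher, Col25a1 (0.13, SE 0.063), and 0 were lower, beside 468 and 328 of all genes. A miss does not show that the tails were alike.

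The sexes were compared within non-anagen dorsal skin. Female skin had less signal of fibrillar collagens: Col1a2, Col1a1, Col3a1, Col5a2, Col5a1 and Col2a1 were lower in females, 6 of the 11 fibrillar genes. Col15a1 and Col6a2 were lower too, while Col12a1, Col4a6 and Col4a5 were higher. In all 8 of 42 were lower, where 6.11% of all genes were, and 3 higher, where 6.19% were. The median was 0.017 over the collagen genes and 0.015 over all genes.

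Col1a1 ran from 9.78 through a median of 10.998 to 11.93 in the 41 females and from 10.78 through 12.02 to 12.61 in the 44 males. All 41 females lay below the male median, and 41 of 44 males above the female median, although the ranges overlapped. The difference was -0.98 (SE 0.11, adjusted p = 1.56e-11 in limma), a 1.97-fold lower signal in females, and only 0.165% of all genes had a lower value.

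Col1a2 ran from 9.10 through 10.54 to 11.35 in females and from 10.13 through 11.48 to 12.30 in males. All 41 females were again below the male median. The difference was -0.99 (SE 0.12, adjusted p = 7.66e-10 in limma), or 1.99-fold.

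Col3a1 ran from 8.31 through 9.63 to 10.65 in females and from 9.13 through 10.52 to 11.54 in males, a difference of -0.85 (SE 0.13, adjusted p = 3.25e-07 in limma). Col5a2 differed by -0.66 (SE 0.12), Col5a1 by -0.49 (SE 0.092) and Col2a1 by -0.25 (SE 0.046). Col15a1 differed by -0.40 (SE 0.10) and Col6a2 by -0.30 (SE 0.093). The sexes overlapped for each of them.

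The higher genes changed less. Col12a1 was higher in females by 0.29 (SE 0.076), with 7 of 41 females below the male median. Col4a6 was higher by 0.26 (SE 0.071) and Col4a5 by 0.24 (SE 0.073), the 2 members that lie on chromosome X. In batch 1 alone the difference was -0.96 for Col1a1, -0.99 for Col1a2 and -0.86 for Col3a1, and Col4a5 (0.21) did not pass (adjusted p = 0.066 in limma).

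**Figure D4:**
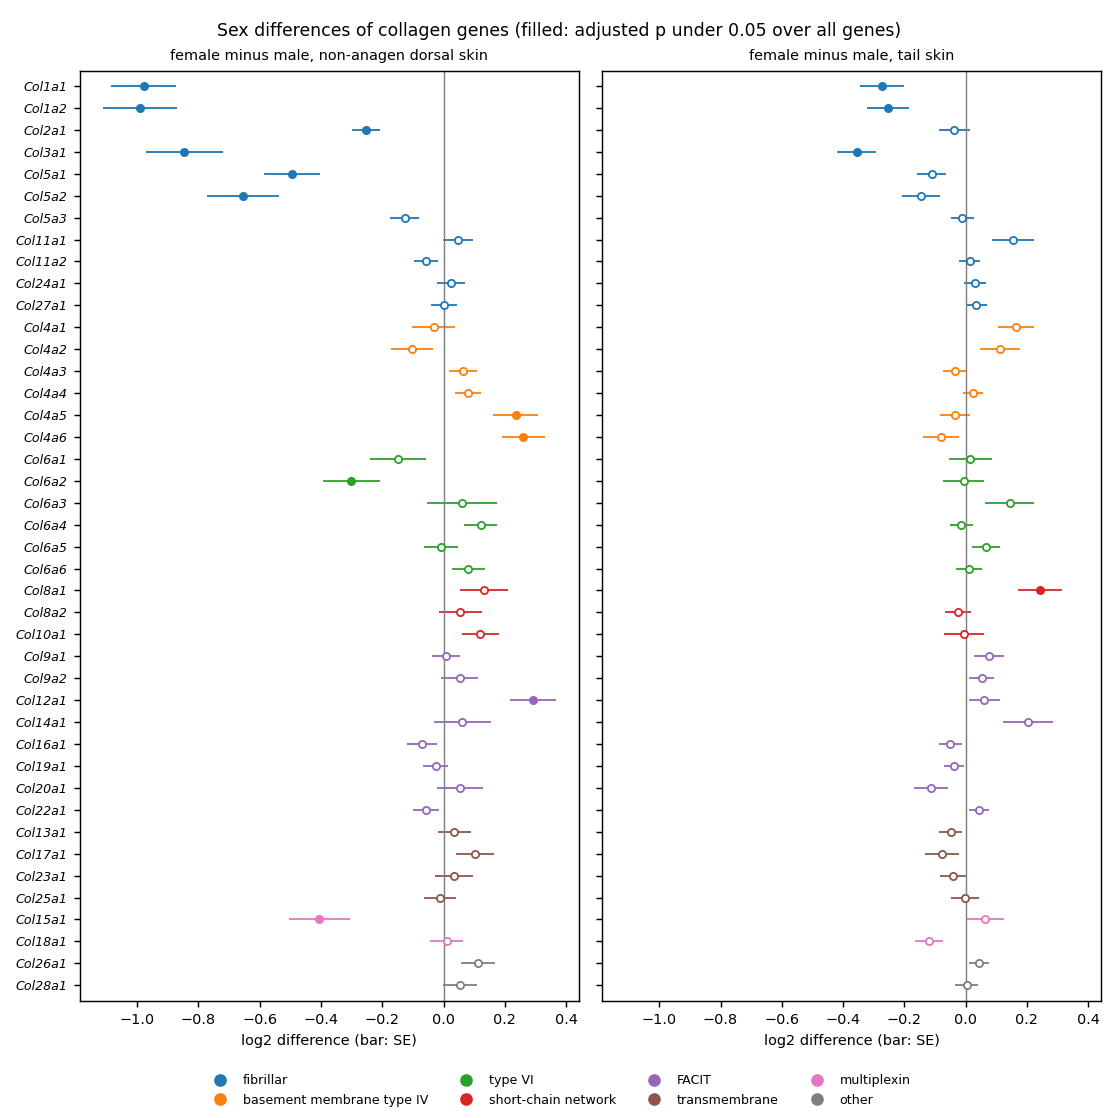
Female minus male differences of the 42 collagen genes on the log2 scale in non-anagen dorsal skin (left) and tail (right), with standard errors as bars. Filled points had an adjusted p under 0.05 in limma over all genes. The fibrillar genes at the top reach -0.99 on the left and -0.36 on the right.

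In tail skin 3 members were lower in females, where 1.2% of all genes were, and 1 higher, where 1.64% were. After arrays were shifted to the same median 5 were lower, Col5a1 and Col18a1 in addition (both -0.12), and 2 higher, Col4a1 in addition (0.16), while 445 instead of 225 of all genes were lower. Col4a1 was also called after quantile normalization (0.16). Col3a1 differed by -0.36 (SE 0.063), Col1a1 by -0.27 (SE 0.072) and Col1a2 by -0.25 (SE 0.069). Col8a1 was higher by 0.24 (SE 0.072). In tail, Col1a1 ran from 10.56 through 11.34 to 12.005 in 48 females and from 11.03 through 11.65 to 12.42 in 49 males, and 39 of the females lay below the male median.

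The difference between the sex effects was itself tested, as the tail effect minus the dorsal effect. It was above 0 for 7 of 42 members, where 4.46% of all genes were, and below 0 for 2, where 4.63% were. The 7 were Col1a2 (0.74, SE 0.14), Col1a1 (0.71, SE 0.13), Col5a2 (0.51, SE 0.13), Col3a1 (0.49, SE 0.14), Col15a1 (0.47, SE 0.12), Col5a1 (0.38, SE 0.10) and Col2a1 (0.22, SE 0.068). The female deficit of these genes was thus smaller in tail, and for Col15a1 the tail value was 0.063. For Col4a6 (-0.34, SE 0.093) and Col4a5 (-0.27, SE 0.087) the dorsal female excess was not matched in tail, where the values were -0.081 and -0.036. In the largest batches Col4a5 no longer passed (-0.25, adjusted p = 0.068 in limma). After arrays were shifted to the same median Col2a1 no longer passed (0.20, adjusted p = 0.060 in limma). Col12a1 passed in addition there (-0.25, adjusted p = 0.026 in limma). The sites had separate batch labels, so the batch cannot be told apart from the site here either.

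Markers moved with sex as well, counted beside 6.19% (higher) and 6.11% (lower) of all genes in dorsal skin and 1.64% and 1.2% in tail. In females all 8 endothelial genes were lower in non-anagen dorsal skin (Pecam1 -0.47), and 5 of 7 smooth muscle genes (Myh11 -0.34) and 2 of 7 fibroblast genes were lower, with Twist2 at -0.74 and Pdgfra at -0.23 (adjusted p = 0.37 in limma). None of the 9 hair genes, none of the 7 skeletal muscle genes and none of the 6 adipocyte genes passed the test there. In tail none of the endothelial genes passed and all 6 adipocyte genes were higher in females. The smooth muscle genes Acta2 (0.44) and Tagln (0.34) and the fibroblast gene Fbln1 (0.23) were also higher in female tails. No gene of these lists was called lower there. Their part in the sex differences of the collagens was not tested.

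The genes that make, process and remove collagen were followed on lists chosen for their roles, with 62 genes measured. In tail against non-anagen skin 31 of them were higher and 23 lower at any size, beside 43.8% and 43.5% of all genes, and 2 and 1 by at least 2-fold. In anagen 4 were higher and 2 lower, beside 4.11% and 3.59%. In female dorsal skin 5 were higher and 22 lower, beside 6.19% and 6.11%, and in female tail skin 4 were higher and 0 lower, beside 1.64% and 1.2%. The counts by role that follow are at any size too and stand beside the same shares.

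Among cross-linking enzymes, which join collagen chains by covalent bonds, 4 of 5 were higher in tail and 1 lower. Lox, the lysyl oxidase, rose by 2.26 and its relatives Loxl2 by 0.80 and Loxl1 by 0.48, and Tgm2, a transglutaminase, fell by 0.76 (-0.76). In female dorsal skin Lox differed by -1.34 and Tgm2 by -0.48, and the sex effect of Lox differed between the sites by 1.34 (adjusted p = 1.17e-06 in limma). In tail the female difference of Lox was -0.0038.

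Among the proteins that bind fibrils, 8 of 13 were higher in tail and 2 lower. Fmod, a small proteoglycan of tendon that regulates fibril growth, rose by 2.59 and Kera by 0.96, while Tnxb, a tenascin that binds dermal fibrils, changed by -0.95 and Aspn by -0.78. In anagen Fn1, the fibronectin that cells use to lay down collagen, rose by 0.65, and 1 of 13 passed. Dpt, which binds decorin, was at 0.55 with an adjusted p of 0.21 in limma.

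Chain modification and folding genes split evenly in tail, 6 of 15 higher and 6 lower. Serpinh1, the collagen chaperone, changed by -0.51, the galactosyltransferases Colgalt1 and Colgalt2 by -0.67 and -0.64, and P4ha3, a prolyl hydroxylase chain, by 0.55. In female dorsal skin 8 of 15 were lower and 1 higher, with Serpinh1 at -0.50. In anagen Plod2, a lysyl hydroxylase, was higher (0.38) and P3h2, a prolyl hydroxylase of basement membrane collagen, lower (-0.35).

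Of 7 genes that trim propeptides, 4 were higher and 3 lower in tail, with Tll1 at 0.99, Adamts3 at 0.44, Bmp1 at 0.35 and Adamts14 at -0.58. In anagen 1 passed, Adamts3 (0.40), which removes an amino-terminal propeptide. Of 14 degradation genes 6 were higher and 6 lower in tail: the collagenase Mmp13 rose by 0.90, Mmp2 by 0.84 and the uptake receptor Mrc2 by 0.87, while Mmp3 changed by -1.36 and Mmp9 by -0.88. In female dorsal skin 6 of 14 were lower, with Mmp3 at -1.55 and the cathepsin Ctsk at -1.34. Of 8 receptors 3 were higher and 5 lower in tail, with the integrin chains Itga1 at -0.87, Itgb1 at -0.37 and Itga2 at -0.36.

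Across mice, the tail and the non-anagen dorsal value of a gene were correlated over 82 animals after removal of sex and batch. Of the 42 members 2 had a positive correlation at an adjusted p under 0.05, where 8.95% of all genes did, and 0 had a negative one, where 0.0691% did. Col8a1 had r = 0.31 (permutation p adjusted over all genes 0.0453) and rho = 0.36 (permutation p = 9.1e-04). Col6a3 had r = 0.31 (adjusted permutation p = 0.046) and rho = 0.34 (permutation p = 0.00218). Without the 2 mice farthest from the median r was 0.32 for both. In the largest batches, with 72 mice, r was 0.34 for Col8a1 and 0.31 for Col6a3, the latter no longer passing (adjusted permutation p = 0.0746). After arrays were shifted to the same median r was 0.28 for Col8a1, which then did not pass (adjusted permutation p = 0.0819), and 0.32 for Col6a3. Each call was thus lost under 1 alternative.

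The median r was 0.093 over the members and 0.081 over all genes. Col12a1 (r = 0.11, rho = 0.13) and Col14a1 (r = 0.044, rho = 0.064), the genes with the largest site differences, were not correlated between sites by this test (adjusted permutation p 0.64 and 0.89). For Col10a1 the best split of the sorted tail values gave 2 parts with means 4.18 pooled SDs apart. A split of 4 or more was the rule for clustered values, so no pooled correlation is given for it. Whether its values form separate clusters was not tested.

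Pairs of collagen genes were then followed across arrays within each site, 18 pairs in 85 non-anagen dorsal and 97 tail arrays, with sex and batch removed. Of the 18, 16 were called in each site at a permutation p adjusted over the 36 relations. A call alone does not set a pair apart from other genes. In dorsal skin 86.4% of all genes had a lower r to Col15a1 than Col18a1 had, and in tail 88.1%. This share was 87.0% for Col8a1 with Col8a2 and 88.9% for Col9a1 with Col9a2 in tail. For Col5a1 with Col11a1 in dorsal skin it was 91.8%, and for Col1a1 with Col1a2 it was 99.99% in each site. Each r describes a relation over mice whose arrays share their normalization and cell mixture.

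The chains of type I collagen were the tightest pair. Col1a1 and Col1a2 had r = 0.96 (rho 0.96) in dorsal skin and r = 0.97 (rho 0.97) in tail, with the smallest p that 100000 permutations can give, 1e-05. Col6a1 and Col6a2, neighbouring genes of the type VI trimer, had r = 0.89 (rho 0.87) and 0.95 (rho 0.95). Col5a1 and Col5a2 had r = 0.89 (rho 0.88) and 0.83 (rho 0.83), and all of these had a permutation p of 1e-05.

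Col4a1 and Col4a2, which share the start region printed above, had r = 0.81 (rho 0.80) in dorsal skin and 0.90 (rho 0.88) in tail. Col4a5 and Col4a6, a head-to-head pair on chromosome X, had r = 0.66 (rho 0.67) and 0.72 (rho 0.69). For the other such pair, Col4a3 and Col4a4, r was 0.27 (rho 0.26) and 0.42 (rho 0.35), with adjusted permutation p of 0.0141 and 8.31e-05.

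Col1a1 and Col3a1 had r = 0.94 (rho 0.95) in dorsal skin and 0.69 (rho 0.69) in tail. Between classes, Col1a1 had r = 0.78 (rho 0.78) with Col6a3 and 0.70 (rho 0.70) with Col4a1 in dorsal skin, and 0.68 (rho 0.68) and 0.39 (rho 0.38) in tail. With Col17a1, the keratinocyte collagen, Col1a1 had r = -0.44 (rho -0.50) in dorsal skin and 0.14 (rho 0.040, adjusted permutation p of r 0.18) in tail. Col4a1 and Col17a1 had r = -0.50 (rho -0.41) and -0.028 (rho -0.25). Col8a1 and Col8a2 had r = 0.018 (rho 0.0062) in dorsal skin and 0.24 (rho 0.26) in tail. After arrays were shifted to 1 common median, r in tail was 0.18 for Col1a1 with Col4a1 and 0.11 for Col8a1 with Col8a2, neither passing any more, and -0.29 for Col4a1 with Col17a1, which then passed. For Col4a3 and Col4a4 that shift gave r = 0.44 in dorsal skin and 0.61 in tail, and in the largest dorsal batch r was 0.23 and did not pass. Differences in r between the sites were not tested.

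**Figure D5:**
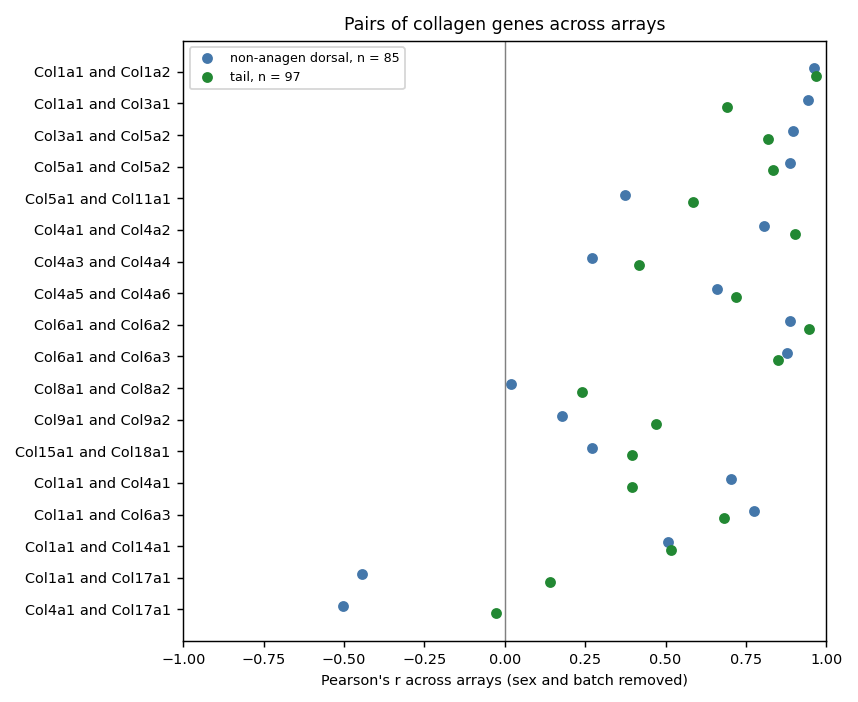
Pearson's r across arrays for 18 pairs of collagen genes in 85 non-anagen dorsal arrays (blue) and 97 tail arrays (green), after removal of sex and batch. Chains of the same trimer lie mostly to the right, and the pairs with Col17a1 lie at -0.44 and -0.50 in dorsal skin.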

How the data were processed

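Skin RNA of backcross mice was hybridised to Affymetrix mouse gene arrays after biotin labelling of 1 ug of total RNA. The deposited values are log2 expression values that the authors computed with RMA, per the submitters' processing notes. Its version, and whether values were adjusted afterwards, is not given in the sources used here. RMA is meant to bring arrays to a common distribution, yet array medians ran from 5.67 to 6.03 and averaged higher in tail, so the sites may have been normalized separately, which no source used here states. Small tail differences depend on this. Of 35556 probe sets, 21218 named 1 gene and were used, 1881 named several and 12457 named none. For 1386 genes with several probe sets the highest-mean one was kept, leaving 18820 genes with no filter on low values. Col7a1 and Col9a3 were only on probe sets naming several genes and were not used. The number of arrays limits the precision.

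Groups followed the labels. limma 3.58.1 (lmFit and eBayes, R 4.3.3) fitted the differences, with sex and, within a tissue, batch as covariates, and Benjamini-Hochberg adjustment over 18820 genes. A call needed an adjusted p under 0.05, and at least 2-fold where stated. The sex effect was compared between sites by an interaction term. The main fits of tail against dorsal skin, and of the interaction, took the arrays of a mouse as independent. Their pairing by mouse entered only as an alternative. Correlations used 100000 permutations, two-sided (Python 3.11.15, scipy 1.17.1, numpy 2.4.6, pandas 2.3.3), and plots used matplotlib 3.10.9. Scripts were tested on simulated data. Equal mouse numbers pair tail and dorsal arrays of the same animal: the median correlation of a tail's deviations with those of its own back was 0.14, against 0.0015 with other backs. Of the 82 tails, 18 correlated best with their own back, and 52 of the 82 pairs had r over 0.1.

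The members and lists were chosen with earlier results of these data known. All members may be named. From each pathway list the 4 genes with the largest tail and the 2 with the largest anagen difference may be named. From each marker list these are the first gene and that with the largest difference. Matn1, Lipe, Acta2, Tagln and Fbln1 were chosen after their values were seen. Sequences are from RefSeq, GRCm38.p6. Alternatives were another scaling of arrays, quantile normalization, the mean of all probe sets, genes above the median, the mouse as a block, array weights, either sex alone and the largest batch. After the data were seen, the fit without 3 anagen arrays of low hair signal was added. No scanner values were used, so background correction was not varied.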

Additional observations from a re-analysis of the deposited data

Results flagged for a closer look

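For 9 collagen genes the female minus male difference was not the same in tail and in non-anagen dorsal skin, by the interaction term in limma with adjustment over all genes. Taken as tail minus dorsal, the difference was 0.74 for Col1a2, 0.71 for Col1a1, 0.51 for Col5a2, 0.49 for Col3a1, 0.47 for Col15a1, 0.38 for Col5a1 and 0.22 for Col2a1. These genes had less signal in females of dorsal skin, and the deficit was smaller in tail. For Col4a6 it was -0.34 and for Col4a5 -0.27, the 2 genes on chromosome X, which were higher in females in dorsal skin. In the largest batches Col4a5 no longer passed (-0.25, adjusted p = 0.068 in limma). With arrays shifted to the same median Col2a1 no longer passed (0.20, adjusted p = 0.060 in limma), and Col12a1 passed in addition (-0.25, adjusted p = 0.026 in limma). The 3 type I and III genes were lower in females at both sites, with a larger gap in dorsal skin. All 8 endothelial and all 7 smooth muscle genes had an interaction above 0 as well, as did Lox (1.34), Ctsk (1.30) and Mmp3 (1.32). Batch and site cannot be told apart in this term, and the part of the other cell types was not tested.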

How the results depend on the processing

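Values of single genes or pairs under an alternative numbered 1871. Of these, 1808 kept their side of the threshold, 27 no longer passed and 14 passed in addition. The other 22 changed sign and were called at any size in the main or the alternative setting. A change of sign in a value called in neither is counted among the 1808. In tail against dorsal skin the threshold was the 2-fold rule, so a call gained or lost at any size is also counted there. After arrays were shifted to 1 common median, the tail difference against non-anagen skin was -0.17 for Col1a1, -0.030 for Col1a2, -0.19 for Col4a2, -0.12 for Col4a4, -0.18 for Col5a1, -0.16 for Col5a3, -0.12 for Col10a1, -0.20 for Col11a2, -0.20 for Col13a1 and -0.16 for Col26a1, and against anagen skin -0.17 for Col13a1. After quantile normalization it was -0.022 for Col1a2, -0.20 for Col4a2, -0.19 for Col5a1, -0.16 for Col6a3 and 0.033 for Col6a4, and against anagen skin -0.21 for Col17a1. With the mean of all probe sets Col5a1 was -0.16. In females alone Col2a1 was 0.010, and in males alone Col1a1 was -0.29, Col1a2 -0.16 and Col5a1 -0.15. The shift moved the median of all tail differences by -0.21 by construction, and the cause of the other changes was not tested.

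Counts of collagen genes moved as follows. The shift to the same median gave 1 gene lower by 2-fold in tail against non-anagen and 1 against anagen skin, 29 and 25 lower at any size, 2 higher and 5 lower in female tails, and 1 correlated between sites. Quantile normalization gave 2 higher in female tails. Among the 17 members above the median of gene means, 8 were higher and 5 lower in tail at any size, 5 and 5 against anagen skin, 1 lower in anagen, 1 higher in female dorsal skin and 0 with a negative interaction, since fewer genes were tested. In anagen, 0 were lower with array weights, 0 in females alone and 0 in males alone, where 1 was higher, and 4 were lower without the 3 arrays of low hair signal. In the largest batches 1 had a negative interaction and 1 was correlated between sites.

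With the mouse as a replicate block, which pairs the tail and dorsal arrays of 82 mice with non-anagen and 14 with anagen skin, 3 members were higher and 0 lower by 2-fold against either dorsal state, and 7 and 2 kept their interaction. The paired difference within each mouse left 8 members lower at any size against anagen skin and 4520 of all genes, and changed no other count of members by over 1.5 times.

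Counts over all genes moved by over 1.5 times in these cases. With the same median, tail against non-anagen skin had 489 higher and 620 lower by 2-fold, against anagen skin 407 and 493, female tails 445 lower, and 1381 genes a negative interaction. Among the 9409 genes above the median, 202 and 176 were lower by 2-fold and 2168 and 1644 at any size in the tail comparisons, and 167 were higher in female tails. In anagen, array weights gave 515 higher and 235 lower, females alone 232 lower, males alone 218 higher and 137 lower, and leaving out the 3 arrays 1185 higher and 1524 lower. In the largest batch 774 genes were higher in female dorsal skin. Negative correlations between sites numbered 7 with the same median and 21 in the largest batches.

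Low signal limits 25 of the 42 members, whose mean lay below the median of gene means, and anagen rests on 14 arrays.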
